A study of Mus musculus with 157 samples.

Results

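The 200 genes described here are the mouse transcripts with the highest scores for newly made RNA in a metabolic labelling experiment on blood stem and progenitor cells. In that experiment, cells took up 4-thiouridine (4sU), a uridine analogue that is built into RNA as it is made and is read after alkylation as a cytosine in place of a thymine. The deposited value, here called the pulse ratio and printed in percent, is the T-to-C ratio of each gene after a labelling time of 3 h. The sources used here do not say whether it is taken over reads, bases or thymines, so a percent printed below ranks genes and is not a share of a transcript's molecules. The pulse table lists 17824 genes, of which 9651 were above 0 in all 12 libraries. Of these, 6890 had a mean of at least 100 normalised counts over the same 6 cell types in unlabelled input RNA. After 382 genes were left out by symbol (predicted genes, histones, ribosomal proteins, zinc finger Zfp genes and clone names), 6508 eligible genes remained. Each library was divided by its own median, the 12 scaled values of a gene were averaged into a score, and the 200 highest scores were taken. The 200 lowest scores by the same rule and all eligible genes are given beside them.

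The pulse libraries came from LT.HSC, ST.HSC, MPP, CMP, GMP and MEP, the long-term and short-term stem cells and the multipotent, common myeloid, granulocyte-monocyte and megakaryocyte-erythroid progenitors, with 2 libraries each. The series also holds 32 input libraries and 32 precipitates made with an antibody to N6-methyladenosine (m6A), all from 16 wild-type cell types, with 2 of each kind per type. Libraries labelled Mettl3 -/- and wild type cover 7 types, the 6 above and MkP, the megakaryocyte progenitor, as 28 input and 28 precipitated libraries, and 4 RNA libraries compare Igf2bp2 -/- with wild-type LT.HSC. A chase experiment followed label loss in LT.HSC and MkP, both wild type, at 7 times after 24 h of labelling with 10 uM 4sU and replacement by 10 mM uridine; the pulse dose is given in the labels as 100 mM. The labels give genotype, cell type, antibody, dose and time, but no strain, age, allele or Cre driver. The labels do not tie replicate libraries to separate animals, and a p-value here reflects the scatter of these libraries alone, which may be technical.

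A steady RNA level is set by how fast a transcript is made and how fast it is lost, and a short pulse labels a larger share of a transcript that turns over quickly. Immediate early genes, feedback inhibitors of cytokine and NF-kB signalling and targets of p53 are textbook examples of short-lived messengers, whereas messengers of metabolic enzymes and ribosomal proteins are typically long-lived. METTL3 is the catalytic subunit of the m6A writer, and m6A is known to mark many messengers for faster decay through YTHDF readers. IGF2BP2 is an m6A reader known for stabilising its targets.

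Depth was 8.23 to 21.5 M reads in the 16-type inputs, 10.8 to 24.6 M in the matching precipitates, 3.42 to 20.2 M in the Mettl3 inputs, 0.819 to 22.9 M in the Mettl3 precipitates and 4.68 to 19.98 M in the Igf2bp2 set (M, mega). Stem cell markers had their highest sum in LT.HSC, megakaryocyte markers in MkP, erythroid markers in Erythroid, T cell markers in CD4 and B cell markers in B_cell libraries. Neutrophil markers summed to 21490217 and 28644563 in the libraries labelled Monocyte, against 2156238 and 2328319 in those labelled Neutrophil, and monocyte markers to 11912503 and 17657130 in Monocyte, against 1437324 and 1520208 in Neutrophil. Both lists were thus higher in the Monocyte libraries, and the labels are used below as names only. Dendritic cell markers were also higher in B_cell than in DC libraries. Lymphoid progenitor markers summed to 219401 and 461141 in B_cell, against 71606 and 93755 in CLP, the common lymphoid progenitor. In the 16-type inputs, 10 genes held 52.2% and 58.8% of reads in the Erythroid libraries and 52.8% and 54.1% in the Monocyte libraries. Among the Mettl3 precipitates, 10 genes held 94.2% of reads in wild-type LT.HSC replicate 1 and 75.8% in wild-type ST.HSC replicate 1, and Mettl3 -/- MEP replicate 1 had 0.819 M reads.

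The highest score belonged to Taco1, a translational activator of mitochondrial cytochrome c oxidase, with a pulse ratio of 4.54% and 8.16% in LT.HSC, 7.34% and 2.54% in ST.HSC, 2.23% and 6.99% in MPP, 3.08% and 2.52% in CMP, 6.16% and 2.67% in GMP and 4.28% and 8.06% in MEP. It was above the eligible median in all 12 libraries. Cdk8, the kinase of the Mediator complex, was second and the steadier of the leading pair, between 3.26% in ST.HSC replicate 2 and 6.79% in GMP replicate 1. Mnat1, an assembly factor of the kinase module of TFIIH, ranged from 1.46% to 5.75%, and Wdr26, a subunit of the CTLH ubiquitin ligase, from 1.90% to 6.08%. Other genes reached the list through 1 library. Fbxw9, an F-box protein, had 14.2% in GMP replicate 2 and a median of 1.78% over the 12 libraries, and that library gave 76.7% of its score. Yeats4, a reader of acylated histones, had 13.5% in LT.HSC replicate 2 and a median of 2.14%. Prdm16, a transcription factor needed by blood stem cells, had 9.96% in GMP replicate 2 and a median of 0.996%, and it lay above the eligible median in only 4 libraries, the fewest of any member.

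Because the pulse ratio chose the genes, its values are descriptions and carry no test. Members had a median score of 5.55, against 2.45 for eligible genes and 0.359 for the 200 lowest. The last inside was Hjurp, the chaperone of centromeric histone CENP-A, at 4.977, and the first outside was Pnisr at 4.975, so the boundary cuts through a continuous range. Nol12, Gvin1, Grb10 and Neurl3 stood just inside, and Gpbp1, Riok3, B4galt4 and Zbtb43 just outside. Members also had less steady RNA than the genes around them, with a median of 232 normalised counts in the 6 types, against 473 for eligible genes and 1366 for the 200 lowest.

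**Figure D1:**
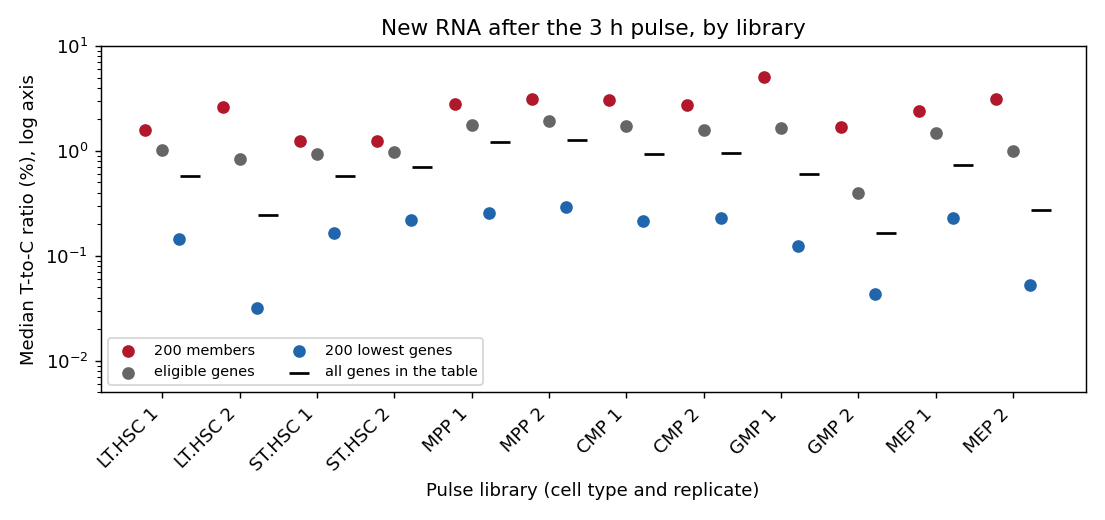
Median pulse ratio (percent, log axis) in each of the 12 libraries for the 200 members, the eligible genes, the 200 lowest and all genes of the table. Member medians lay above eligible medians in each library, and the gap was widest in GMP 2, where the medians were 1.70% and 0.399%, and narrowest in ST.HSC 2, where they were 1.23% and 0.979%.

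The scaling gave 3 libraries a large say. The library medians over all genes were 0.166% in GMP 2, 0.244% in LT.HSC 2 and 0.276% in MEP 2, against 0.579% to 1.26% in the other 9, so a given ratio counted for more there. For 184 members the highest scaled value fell in these 3 libraries, and 23 members drew most of their score from 1 library. Even so, 151 members were above the eligible median in at least 10 libraries and 82 in all 12. Without the 3 libraries, 82 of the 200 genes were chosen again, and a choice by mean rank over the 12 libraries also shared 82. Jun, Klf6, Btg2, Trib3 and Nupr1, which carry much of what follows, were above the eligible median in all 12 libraries and stood in both other lists, as did 55 members in all.

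By cell type, the members' median pulse ratio was 2.15% in LT.HSC, 1.23% in ST.HSC, 3.02% in MPP, 2.94% in CMP, 3.50% in GMP and 2.73% in MEP. The GMP value rests on libraries with medians of 5.03% and 1.70%, and both ST.HSC libraries had lower medians than the other 10. Within the list, the ratio of the highest to the lowest type mean was largest for N4bp2l1 (31.4), whose LT.HSC values were 1.23% and 10.8% and whose GMP values were 0.338% and 0.0453%. For Trmt5, a tRNA methyltransferase, a ratio of 20.5 between GMP and ST.HSC rested on GMP values of 16.8% and 0.0554%. Replicate libraries of 1 type thus lay far apart for both genes.

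Of the 200 members, 142 were given 1 of 11 broad classes by known function, a grouping made after the members were seen. Transcription and chromatin formed the largest class with 29 genes, among them the Mediator and TFIIH kinase genes Cdk8 and Mnat1, the general factor subunits Taf2 and Taf7, the RNA polymerase III subunits Polr3d and Polr3f, the acetyltransferase Ep300 and the regulators Jun, Klf6 and Klf9. Inflammatory and cytokine signalling held 20 genes, including the receptors Tnfrsf1a and Ifnar1, the adaptors Traf4, Traf6 and Irak2, the NF-kB subunit Nfkb2 and the chemokine Ccl3. RNA processing held 16 genes, membrane traffic 15, DNA repair and cell division 14 and metabolic enzymes 11. A further 10 genes answer to amino acid, DNA damage or metal stress: Asns, Trib3, Ddit3, Cebpg, Nupr1 and Sesn2, known from the ATF4 and integrated stress responses, Cdkn1a and Btg2, known p53 targets, the metallothionein Mt2 and the chaperone Hspa4l. Translation, tRNA and ribosomal RNA factors numbered 9, ubiquitin system genes and transporters 7 each, and nuclear envelope and transport genes 4.

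The membership of 23 gene lists and families was also counted, against a share of members among eligible genes of 3.07%. Of 15 eligible immediate early and AP-1 genes, 3 were members (Jun, Btg2 and Klf6), as were 3 of 11 p53 targets (Cdkn1a, Sesn2 and Btg2), 2 of 8 SOCS and PIM genes (Socs5 and Pim1) and 2 of 13 NF-kB feedback genes (Nfkb2 and Birc3). Transcription factor families gave 8 of 145 and ubiquitin ligase families 6 of 194. No member came from 52 oxidative phosphorylation genes, 39 ribosome biogenesis genes, 31 proteasome subunits, 28 SR protein and CLK kinase genes, 20 stem cell regulators, 13 glycolysis genes or 8 m6A writers. Regulatory lists with no member were 10 BCL2 family genes, 7 Myc network genes, 6 dual specificity phosphatases and 1 Id or Hes repressor. The 8 m6A readers and erasers gave none either. The 200 lowest held 2 glycolysis genes (Aldoa and Tpi1). These counts describe the list and were not tested, because the pulse ratio made it.

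The unlabelled inputs show where these transcripts accumulate. In the 7 mature types (Erythroid, Monocyte, Neutrophil, DC, B_cell, CD4 and CD8, with 14 libraries) set against 9 stem and progenitor types (18 libraries), the immediate early members stood out. Btg2, an antiproliferative adaptor of the CCR4-NOT deadenylase, had 2284 to 13978 normalised counts (median 4760.1) in mature libraries, against 66.9 to 2132 (median 261) in stem and progenitor libraries. Jun, an AP-1 subunit, had 769 to 16385 (median 5944) in mature libraries, against 97.1 to 718 (median 293) in stem and progenitor libraries. For both genes the 2 ranges did not touch. Their log2 differences were 4.20 ± 0.14 (SE, adjusted p = 4.69e-17) and 3.83 ± 0.19 (adjusted p = 4.21e-14) by limma over all genes. For Jun, the wild-type Mettl3 inputs described below, all from stem and progenitor types, reached values above every mature library here. Their median was also above the highest stem and progenitor value here. The 2 sets were normalised separately, so these levels are not directly comparable. The zinc finger factor Klf6 had 626 to 38973 (median 6445) in mature libraries, against 144 to 2587 (median 656) in stem and progenitor libraries, a log2 difference of 3.01 ± 0.14 (adjusted p = 2.17e-14), with overlapping ranges. Of the whole immediate early and AP-1 list, 30 of 39 tested genes were higher in mature types and 2 were lower, with a median log2 difference of 2.34, against 0.16 over all genes. In bulk RNA, more cells of a type and more RNA per cell cannot be told apart.

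The starts of these 3 genes are shown because Jun, Klf6 and Btg2 are the immediate early members. Each line gives the RefSeq window on GRCm38.p6 from 250 bases before to 50 after the gene start, 5′ to 3′ on the gene's strand, with capitals marking matches, on both strands, to 5 motifs: TGACTCA (AP-1), TGACGTC (the cAMP response element core, which overlaps its own reverse complement), CACGTG (E-box), CCAAT and TATAAA. Jun lies at chr4:95052173-95052472 (minus strand), Klf6 at chr13:5861239-5861538 (plus strand) and Btg2 at chr1:134079106-134079405 (minus strand).
Jun: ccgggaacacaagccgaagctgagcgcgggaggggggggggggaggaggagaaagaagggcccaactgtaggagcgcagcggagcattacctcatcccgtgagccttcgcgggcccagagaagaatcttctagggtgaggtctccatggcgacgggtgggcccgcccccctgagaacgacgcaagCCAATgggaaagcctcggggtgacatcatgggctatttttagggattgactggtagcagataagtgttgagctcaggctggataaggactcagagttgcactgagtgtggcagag
Klf6: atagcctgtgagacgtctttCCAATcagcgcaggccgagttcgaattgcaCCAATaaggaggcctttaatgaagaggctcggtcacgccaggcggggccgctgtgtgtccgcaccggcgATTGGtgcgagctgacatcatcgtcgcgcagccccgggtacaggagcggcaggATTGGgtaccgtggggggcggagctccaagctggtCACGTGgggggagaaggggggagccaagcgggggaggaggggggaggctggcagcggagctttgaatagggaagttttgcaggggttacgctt
Btg2: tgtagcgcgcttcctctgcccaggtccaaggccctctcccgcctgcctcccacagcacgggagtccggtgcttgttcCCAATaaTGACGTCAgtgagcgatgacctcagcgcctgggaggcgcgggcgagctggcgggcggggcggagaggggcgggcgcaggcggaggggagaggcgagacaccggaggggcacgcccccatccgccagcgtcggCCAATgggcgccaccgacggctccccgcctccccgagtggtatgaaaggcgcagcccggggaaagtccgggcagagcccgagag
All 3 windows hold CCAAT or its reverse complement ATTGG, 1 match in Jun, 4 in Klf6 and 2 in Btg2. Klf6 also holds 1 E-box, and Btg2 the cAMP response element core on both strands. CCAAT was found in 30.4% of the 171 member promoters in the table, against 39.1% of eligible promoters and 37.9% of all 27025 promoters. TGACGTC was found in 7.02% of member promoters, 6.62% of eligible and 3.33% of all, TGACTCA in 5.26%, 2.68% and 5.17%, CACGTG in 7.60%, 11.5% and 7.24%, and TATAAA in 10.5%, 6.28% and 14.2%. A match of letters is a description of the window and not a site.

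Other members higher in mature types had varied roles. Ptprc, the pan-leukocyte phosphatase CD45, had 941 to 18424 normalised counts (median 13479) in mature libraries, against 203 to 4889.6 (median 819.9) in stem and progenitor libraries. Rgs2, a brake on G protein signalling, had 287 to 29259 (median 3572) in mature libraries, against 9.46 to 2794 (median 274) in stem and progenitor libraries, and Monocyte libraries were its highest. Ccnl1, a cyclin that associates with splicing factors, had 2264 to 6329 (median 3525) in mature libraries, against 687 to 2187 (median 974) in stem and progenitor libraries, with no overlap. The log2 differences were 3.50 ± 0.09 (adjusted p = 1.38e-18) for Ptprc, 3.47 ± 0.15 (adjusted p = 5.36e-15) for Rgs2 and 1.76 ± 0.10 (adjusted p = 1.82e-13) for Ccnl1. Also higher were Olfr1033 (3.39), Hbb-bt (3.18, highest in Erythroid), Gpcpd1 (2.72), Sertad1 (2.14), the kinase Pim1 (1.59) and the apoptosis inhibitor Birc3 (1.40). Olfr1033 and Hbb-bt belong to large or near-identical families, so their reads may have been split between copies. Of the 20 inflammatory and cytokine members, a class formed after the members were seen, 16 were higher in mature types and none was lower. Of the NF-kB feedback list as a whole, 12 of 18 genes were higher and 3 lower. Among all genes 39.4% were higher and 29.6% lower, and among eligible genes 33.3% were higher and 39.8% lower.

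Slc22a3, Grb10 and Pdgfrb had the largest falls in mature types, followed by Oaf, Csgalnact1, Zdhhc1, Vldlr and Git1. The rule asked for a level in 6 of the 9 stem and progenitor types and for none in mature types. For a member near 0 in mature types, the direction was therefore set by the rule, and its p-value is a description. Slc22a3, an organic cation transporter, had 0 to 20.8 normalised counts (median 1.37) in mature libraries, against 8.07 to 584 (median 226) in stem and progenitor libraries, and its log2 difference was -5.75 ± 0.33 (adjusted p = 5.15e-13). Pdgfrb, the platelet-derived growth factor receptor beta, had 0 to 14.2 (median 3.82) in mature libraries, against 21 to 580.2 (median 113) in stem and progenitor libraries, with no overlap and a log2 difference of -4.92 ± 0.30 (adjusted p = 1.57e-12). Grb10, an adaptor that restrains insulin receptor signalling, had 0 to 8.86 (median 0) in mature libraries, against 0 to 724 (median 52.4) in stem and progenitor libraries. Its log2 difference of -4.93 ± 0.24 (adjusted p = 2.78e-14) was the only one of the 16 named calls lost under another test, edgeR on the recovered reads. All 9 translation and tRNA members either were lower in mature types (6 genes, Trmt5 among them at -1.13 ± 0.12, adjusted p = 2.04e-08) or did not pass. Taco1, the top gene by pulse, did not pass either, with 47.8 to 204 (median 104) in mature libraries, against 40.8 to 246 (median 120.1) in stem and progenitor libraries (log2 difference -0.17, adjusted p = 0.299).

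Counted together, 87 members (43.5%) were higher in mature types, where 39.4% of all genes and 33.3% of eligible genes were. Another 65 (32.5%) were lower, where 29.6% of all and 39.8% of eligible genes were. The rule required a level in 6 of the 9 stem and progenitor types, a condition the eligible genes share. The median log2 difference was 0.14 for members, -0.08 for eligible genes, -0.63 for the 200 lowest and 0.16 for all genes. Quantile normalisation moved the median of all genes by -0.17 and gave 77 members higher and 67 lower. With the genes chosen by mean rank, 125 were higher and 30 lower. Ranges that did not overlap between mature and other libraries were found for 4 members (Pdgfrb, Ccnl1, Btg2 and Jun), where 0.285% of all and 0.446% of eligible genes had them.

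**Figure D2:**
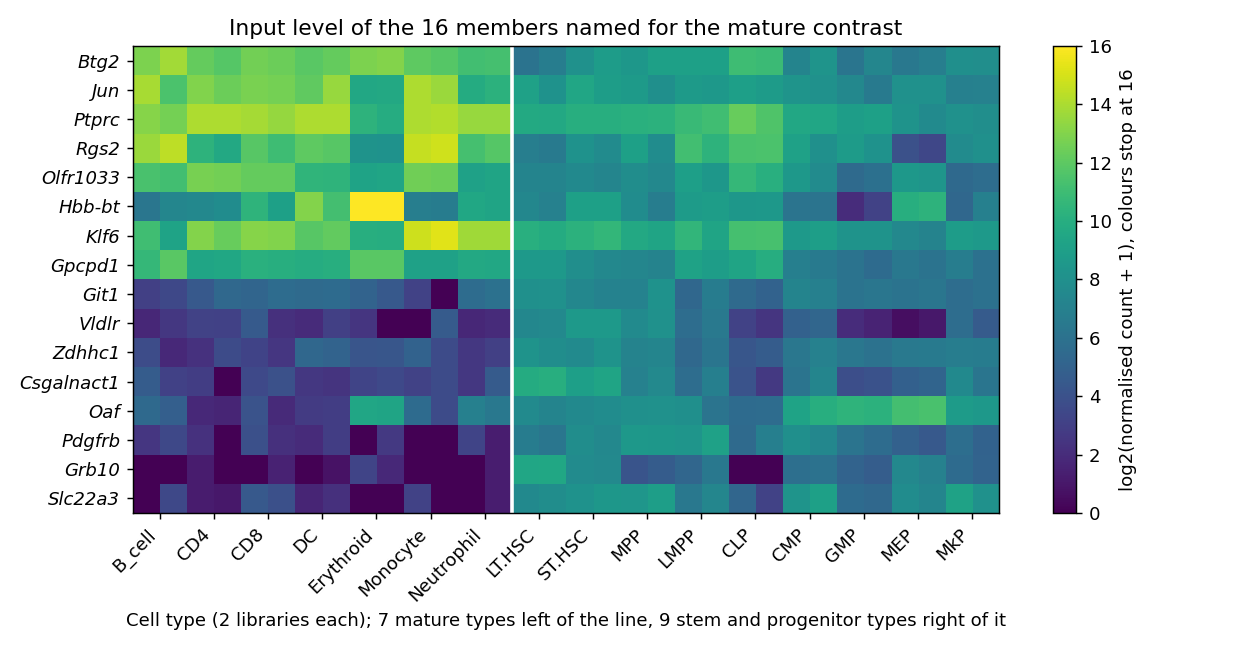
Input level (log2 of normalised count plus 1, as colour) in each of the 32 libraries for the 16 members with the largest differences, 1 row a gene, with the 7 mature types left of the white line and the 9 stem and progenitor types right of it. Btg2 and Jun are higher in each mature library than in any other, Klf6 and Ptprc are higher in most but overlap, and Slc22a3 and Pdgfrb reach at most 20.8 and 14.2 normalised counts in mature libraries.

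Across all 16 types, 193 members (96.5%) differed by the overall F test, where 92.6% of all genes and 97.9% of eligible genes did. The range of type means was widest for Hbb-bt (18.39 on the log2 scale), Rgs2 (10.99), Asns (10.91) and Mt2 (10.70). It was narrowest for Ngrn (0.82) and Zbtb5 (1.20), and the median range was 3.11 for members, against 3.03 for eligible genes. Erythroid was the highest type for 43 members (21.5%, against 19.2% of eligible genes), B_cell for 23 and Monocyte for 20.

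In LT.HSC, the most upstream cell of the series, a separate group of members stood high. Grb10 had 703 and 724 normalised counts in LT.HSC, against 0 to 211 (median 5.75) in the 30 libraries of the other 15 types. Csgalnact1, an enzyme of chondroitin sulfate synthesis, had 937 and 1026 in LT.HSC, against 0 to 654 (median 15.4) elsewhere, and Prdm16 had 361 and 440.4 in LT.HSC, against 7.9 to 218 (median 57.1) elsewhere. LT.HSC was above every other library for these 3 genes. Their log2 differences from the mean of the other types were 6.39 ± 0.49 (adjusted p = 1.5e-09), 5.22 ± 0.58 (adjusted p = 2.93e-07) and 2.90 ± 0.31 (adjusted p = 2.17e-07) by limma. The rule asked for a mean of at least 100 over 6 types, LT.HSC among them. A gene low elsewhere, such as Grb10 or Csgalnact1, could thus enter the list through its LT.HSC level. The p-values of such genes are therefore descriptions. Trib3, a pseudokinase induced by ATF4, had 730.0 and 636 in LT.HSC, against 3.02 to 1123 (median 18.1) elsewhere, and ST.HSC, with 787 and 1079, was higher still; its log2 difference was 4.35 ± 0.40 (adjusted p = 2.36e-08). Nupr1, a small stress-induced chromatin protein, had 864 and 959.6 in LT.HSC, against 4.87 to 1155 (median 99.6) elsewhere, and Monocyte was as high (log2 difference 3.30 ± 0.35, adjusted p = 1.78e-07). The other stress members did not follow: Ddit3 (0.13, adjusted p = 0.729) and Asns (-0.27, adjusted p = 0.417) did not pass, and Sesn2 (-1.35, adjusted p = 0.021) and Cdkn1a (-1.80, adjusted p = 9e-05) were lower, Sesn2 only with LT.HSC replicate 2 (0.05 without it, adjusted p = 0.945).

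Trib3 and Nupr1 are shown next because both were high in LT.HSC and, as described below, higher in libraries labelled Mettl3 -/-. Capitals mark TNCATCA, the reverse complement of TGATGNA, the core of the composite element bound by ATF4 with C/EBP factors, searched on both strands and added after the values were seen. Trib3 lies at chr2:152344011-152344310 and Nupr1 at chr7:126625421-126625720, both on the minus strand of GRCm38.p6.
Trib3: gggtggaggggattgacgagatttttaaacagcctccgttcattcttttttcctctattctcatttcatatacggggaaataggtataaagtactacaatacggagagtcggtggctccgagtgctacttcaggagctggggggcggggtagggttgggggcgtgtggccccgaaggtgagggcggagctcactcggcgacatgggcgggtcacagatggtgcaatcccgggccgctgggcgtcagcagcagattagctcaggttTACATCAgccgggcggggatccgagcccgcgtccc
Nupr1: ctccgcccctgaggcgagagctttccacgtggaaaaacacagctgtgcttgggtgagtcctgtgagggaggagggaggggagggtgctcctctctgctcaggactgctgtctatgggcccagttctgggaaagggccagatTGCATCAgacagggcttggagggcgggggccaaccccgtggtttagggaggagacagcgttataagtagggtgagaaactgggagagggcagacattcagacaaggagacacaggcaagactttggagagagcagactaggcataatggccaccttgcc
Each window holds 1 match. TGATGNA was found in 9.94% of member promoters, 6.88% of eligible promoters and 12.3% of all promoters, a lower share in the list than among all promoters.

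The members lowest in LT.HSC included several that were higher in mature types. Btg2 had 66.9 and 107 normalised counts in LT.HSC, against 72.5 to 13978 (median 2041) elsewhere, and Fcgr2b, the inhibitory Fc receptor, had 45.7 and 35.1 in LT.HSC, against 9.46 to 5960.3 (median 711) elsewhere. Their log2 differences were -3.74 ± 0.28 (adjusted p = 8.37e-10) and -3.52 ± 0.27 (adjusted p = 1.8e-09). The cytokine feedback genes went the other way, with Pim1 at 1291 and 2116 in LT.HSC, against 92.4 to 3349 (median 889) elsewhere (1.34 ± 0.31, adjusted p = 0.00141), and Socs5 at 226 and 219 in LT.HSC, against 0 to 264 (median 93.1) elsewhere (1.90 ± 0.70, adjusted p = 0.034). The Pim1 call was lost without LT.HSC replicate 2 (adjusted p = 0.0966) and the Socs5 call without either LT.HSC library (adjusted p = 0.171 without replicate 1 and 0.167 without replicate 2). Of the SOCS and PIM list, 11 of 15 genes were higher in LT.HSC and none lower, with a median log2 difference of 1.33, against 0.17 over all genes. In all, 44 members (22%) were higher in LT.HSC, where 22.6% of all and 20% of eligible genes were, and 37 (18.5%) were lower, where 17.7% of all and 25% of eligible genes were. These shares lie near the background, and quantile normalisation, which moved the median of all genes by -0.16, turned the balance to 39 higher and 46 lower. They also rest on 2 libraries: without LT.HSC replicate 1, 29 members were higher, and without replicate 2, 23 were higher and 19 lower.

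MkP, the other type of the chase, differed from LT.HSC in both directions. Trib3 had 10.3 and 19.7 normalised counts in MkP, against 730.0 and 636 in LT.HSC (-5.48 ± 0.55, adjusted p = 7.6e-08). Pim1 had 96.7 and 102 in MkP, against 1291 and 2116 in LT.HSC (-4.04 ± 0.42, adjusted p = 1.13e-07). Dock2, an activator of Rac in blood cells, had 142 and 97.6 in MkP, against 923 and 1066 in LT.HSC (-3.07 ± 0.26, adjusted p = 9.47e-09). Higher in MkP were Fcgr2b, with 752 and 759, against 45.7 and 35.1 in LT.HSC (4.21 ± 0.37, adjusted p = 1.49e-08), and the asparagine synthetase gene Asns, with 1420.3 and 1460.0, against 304 and 255 in LT.HSC (2.37 ± 0.35, adjusted p = 1.09e-05). Stress genes that are often listed together thus moved in opposite directions. Lmna (2.59), Cdca4 (2.46), Trmt11 (2.29) and the kinetochore gene Ska3 (2.20) were also higher in MkP.

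In all, 31 members (15.5%) were higher in MkP, where 20% of all and 35.3% of eligible genes were, and 65 (32.5%) were lower, where 32.1% of all and 25.3% of eligible genes were. The median log2 difference was -0.30 for members, 0.34 for eligible genes and -0.41 for all genes. The split depended on scaling: quantile normalisation moved the median of all genes by 0.43 and gave 37 members higher and 50 lower, and edgeR on recovered reads gave 45 higher and 53 lower. Without MkP replicate 2, 41 members were lower. All 6 granulocyte-monocyte progenitor markers were higher in MkP, with sums of 767614 and 730507 in MkP, against 5081 and 5062 in LT.HSC, and so were all 8 neutrophil markers, with sums of 20358 and 62756, against 1403 and 2171. Their part in these differences was not tested.

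The m6A enrichment of a transcript was taken as the log2 CPM in the precipitate minus that in the input, set relative to the median gene of each type. It is a relative level and not a count of methylated molecules. The inputs are the libraries compared above, so an input difference enters the enrichment with the opposite sign. Members spanned much of the range of eligible genes, which ran from -3.35 to 2.53. Nup153, a nucleoporin, averaged 2.11 over 16 types (1.08 to 3.01), Wdr26 averaged 2.00 (1.29 to 2.60) and Nab1, a corepressor of EGR factors, averaged 1.91 (0.66 to 3.13), all above 0 in each of the 16 types. At the other end, Jun averaged -2.38, from -4.59 in Monocyte to -1.14 in GMP, and Klf6 averaged -1.90, from -3.33 in Monocyte to -1.004 in B_cell, below 0 in each type. Aunip (-2.41), a partner of Aurora kinase A, and the linker histone H1f0 (-2.31) were also low. High pulse ratios were thus found at both ends of the enrichment scale.

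As a whole, the members' mean enrichment over 16 types had a median of 0.05, against -0.08 for eligible genes and -0.81 for the 200 lowest. It was above 0 for 103 members (51.5%), against 47.2% of eligible genes and 21% of the 200 lowest. Enrichment was above 0 in all 16 types for 16.5% of members and 14.5% of eligible genes. The list chosen by mean rank had a median of 0.38, and that chosen without the 3 libraries -0.02. By class, the 9 translation and tRNA members had a median of -0.56 with 1 above 0, and the 15 membrane traffic members -0.80 with 5 above 0. The 11 metabolic enzymes had a median of 0.92 with 6 above 0 (from -1.58 to 1.40), and the 14 DNA repair and division members 0.35 with 10 above 0.

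**Figure D3:**
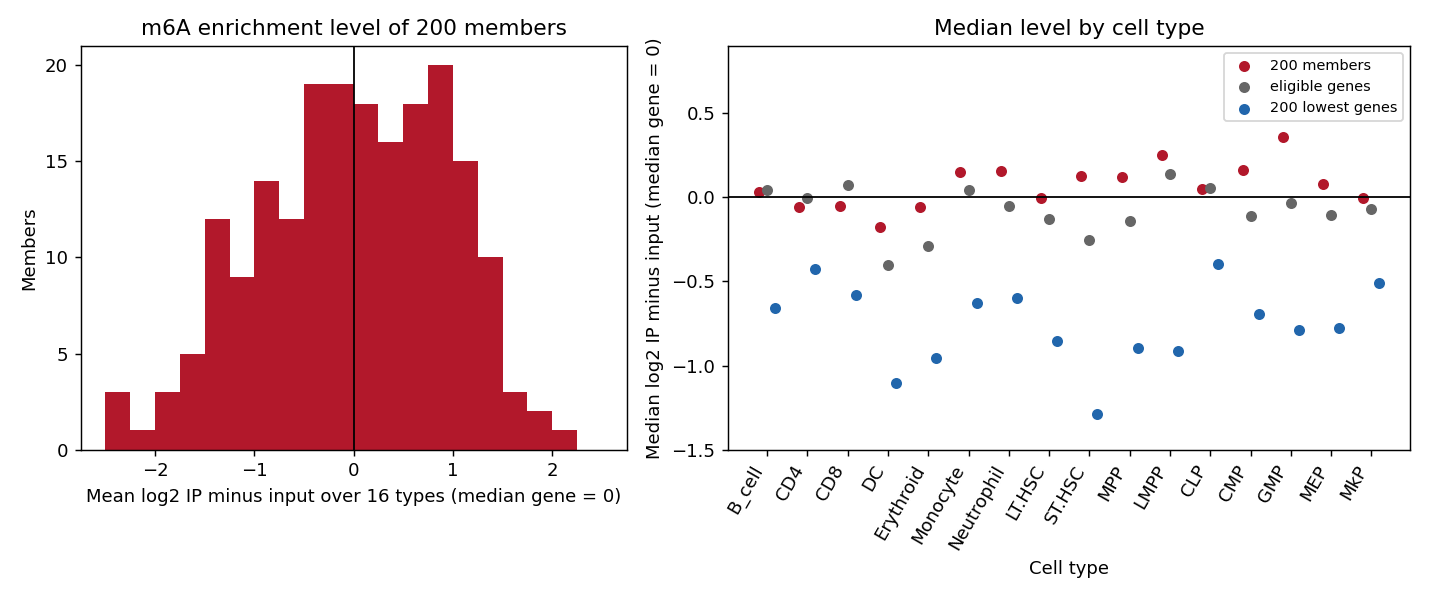
m6A enrichment (log2 precipitate minus input, median gene at 0), as a histogram of the 200 members' means over 16 types (left) and as the median of members, eligible genes and the 200 lowest in each type (right). The members spread from -2.41 to 2.11 around a median of 0.05, and the medians of the 200 lowest lie below both other groups in each type.

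Enrichment also differed between types for 70 members (35%), where 32.9% of all and 40.8% of eligible genes did. Ccnl1 lay between -1.35 and -0.58 in the 7 mature types, against -0.44 to 0.40 in the 9 stem and progenitor types, a difference of -1.06 ± 0.12 (adjusted p = 5.98e-08 by limma), while its input level was higher in mature types. Jun differed by -1.55 ± 0.30 (adjusted p = 4.76e-04), and Sertad1 (-1.23), Olfr1033 (-1.23), Ptprc (-1.08) and Rgs2 (-0.94) were lower too. Jun, Sertad1, Olfr1033, Ptprc and Rgs2 were also higher in mature inputs. Higher in mature types were Oaf (1.70), the glucose transporter Slc2a1 (0.90), Zdhhc1 (0.88), Aunip (0.80) and Serpina3g (0.62). Of these, Oaf and Zdhhc1 were among the largest falls in mature inputs. The part of the inputs in these enrichment differences was not tested. The Aunip call was lost without the Monocyte libraries (0.67, adjusted p = 0.106), a choice made after seeing the data, and 38 of 64 single omissions ended the Serpina3g call. Overall 5 members (2.5%) were higher, where 3.05% of all and 3.35% of eligible genes were, and 22 (11%) were lower, where 7.38% of all and 9.59% of eligible genes were. With the genes chosen by mean rank, 35 were lower. The count of higher members was 8 without CD8 precipitate 1, 9 without LMPP precipitate 1 and 9 without LT.HSC precipitate 2.

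Against the other 15 types, enrichment in LT.HSC was higher for 8 members (4%), where 4.8% of all and 2.9% of eligible genes were, and lower for 26 (13%), where 10.1% of all and 12% of eligible genes were. Trib3 differed by -1.999 and Cdc25a, a phosphatase that drives the cell cycle, by -1.98, while Lrrfip2 (1.29) was higher. These were the 3 of 16 named calls that held under every alternative. The Trib3 input, which is subtracted here, was higher in LT.HSC. Between MkP and LT.HSC, 18 members (9%) were higher, where 8.29% of all and 12.2% of eligible genes were, led by Cdc25a (3.35), and 6 (3%) were lower, where 3.7% of all and 3.2% of eligible genes were, led by Zscan21 (-2.98). These counts turned on single LT.HSC and MkP libraries. For LT.HSC against the rest they were 3 higher and 16 lower without input replicate 1, 5 and 12 without precipitate 1, 5 and 4 without input 2, and 22 and 46 without precipitate 2. For MkP against LT.HSC, the count of higher members was 10 without LT.HSC input 1, 9 without MkP input 1, 10 without MkP precipitate 1, 3 without LT.HSC input 2, 7 without MkP input 2 and 37 without LT.HSC precipitate 2, and that last omission also gave 16 lower.

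The Mettl3 libraries ask what happens to these transcripts without the m6A writer. The targeted gene did not separate the labels: Mettl3 itself had 274 to 931 normalised counts (median 489) in inputs labelled Mettl3 -/-, against 127 to 5370.5 (median 428) in wild-type inputs, a log2 difference of 0.06 ± 0.26 (adjusted p = 0.9). The labels do not give the deleted exons, and the table sums the whole gene, so this value cannot check them. All directions below are therefore between libraries so labelled.

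Several inflammatory and stress members were higher in the inputs labelled Mettl3 -/-. They were 6 of the 20 inflammatory and cytokine members, with 0 lower, and 3 of the 10 stress members, with 1 lower. Among all genes 7.24% were higher and 2.89% lower. The classes were formed after the members were seen, and others had calls too. Of 15 membrane traffic members 3 were higher and 0 lower, and of 7 transporters 2 were higher and 1 lower. None of the 11 metabolic enzymes was called. Asns, Ddit3 and Cebpg were not among the stress members called. Serpina3g, a serpin that inhibits cathepsins, had 1869 to 42447 normalised counts (median 18856) in 14 Mettl3 -/- inputs, against 216 to 6877 (median 2696) in 14 wild-type inputs. Rab20, a small GTPase of phagosomes, had 60.3 to 1051 (median 436) in Mettl3 -/- inputs, against 8.31 to 178 (median 70.1) in wild-type inputs. Both means were higher in Mettl3 -/- in 7 of 7 types, although the ranges over all types overlapped. The log2 differences, averaged over types, were 2.90 ± 0.34 and 2.73 ± 0.32 (adjusted p = 1.55e-05 each, limma over all genes). Serpina3g belongs to a family of close copies, so its reads may include those of relatives. Among stress genes, Trib3 had 7.09 to 782 (median 133) in Mettl3 -/- inputs, against 0 to 411 (median 27.8) in wild-type inputs (2.07 ± 0.51, adjusted p = 0.0119), and Nupr1 had 35.5 to 2212 (median 257) in Mettl3 -/- inputs, against 16.1 to 729 (median 52.1) in wild-type inputs (1.88 ± 0.25, adjusted p = 7.18e-05), both higher in 7 of 7 types. The cell cycle inhibitor Cdkn1a had 269 to 1669 (median 699) in Mettl3 -/- inputs, against 41.9 to 725 (median 267) in wild-type inputs (1.76 ± 0.36, adjusted p = 0.00295), higher in 6 of 7 types. Of the p53 target list, 8 of 23 genes were higher and none lower, with a median log2 difference of 0.70, against -0.06 over all genes.

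Wdr53 was the single member whose groups did not overlap, with 282 to 759 (median 395) in Mettl3 -/- inputs, against 67.1 to 267 (median 207) in wild-type inputs (1.05 ± 0.18, adjusted p = 0.000844); 0.0133% of all genes had such separation. The tumour necrosis factor receptor Tnfrsf1a (1.51), Tnfaip8l2 (1.67), Snx20 (1.71), Dyrk3 (1.74), Slc2a1 (1.32), Irgm1 (1.28), H1f0 (1.27) and Nfkb2 (0.59, adjusted p = 0.0466) were also higher, the last a call that 22 of 28 single omissions ended. The immediate early members did not pass: Jun had 86.4 to 10292 (median 341) in Mettl3 -/- inputs, against 94.1 to 32998 (median 2463) in wild-type inputs (-0.57 ± 1.12, adjusted p = 0.777), and Klf6 (-0.76, adjusted p = 0.339) and Btg2 (0.50, adjusted p = 0.479) did not pass either. The stress genes did not move as one, since Sesn2 (0.62, adjusted p = 0.126) missed the threshold and the chaperone Hspa4l was lower. Hspa4l had 8.68 to 169.9 (median 99.3) in Mettl3 -/- inputs, against 123 to 557 (median 209) in wild-type inputs (-1.49 ± 0.28, adjusted p = 0.00126), and was lower in 7 of 7 types. Grb10 (-1.21), Slc22a3 (-1.06), Hjurp (-0.79, a call that 16 of 28 single omissions ended) and Ensa (-0.63) completed the lower group. The calls of Trib3, Tnfaip8l2, Snx20, Grb10, Slc22a3 and Hjurp did not hold without LT.HSC, ST.HSC and MEP, the types with libraries that stood apart.

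**Figure D4:**
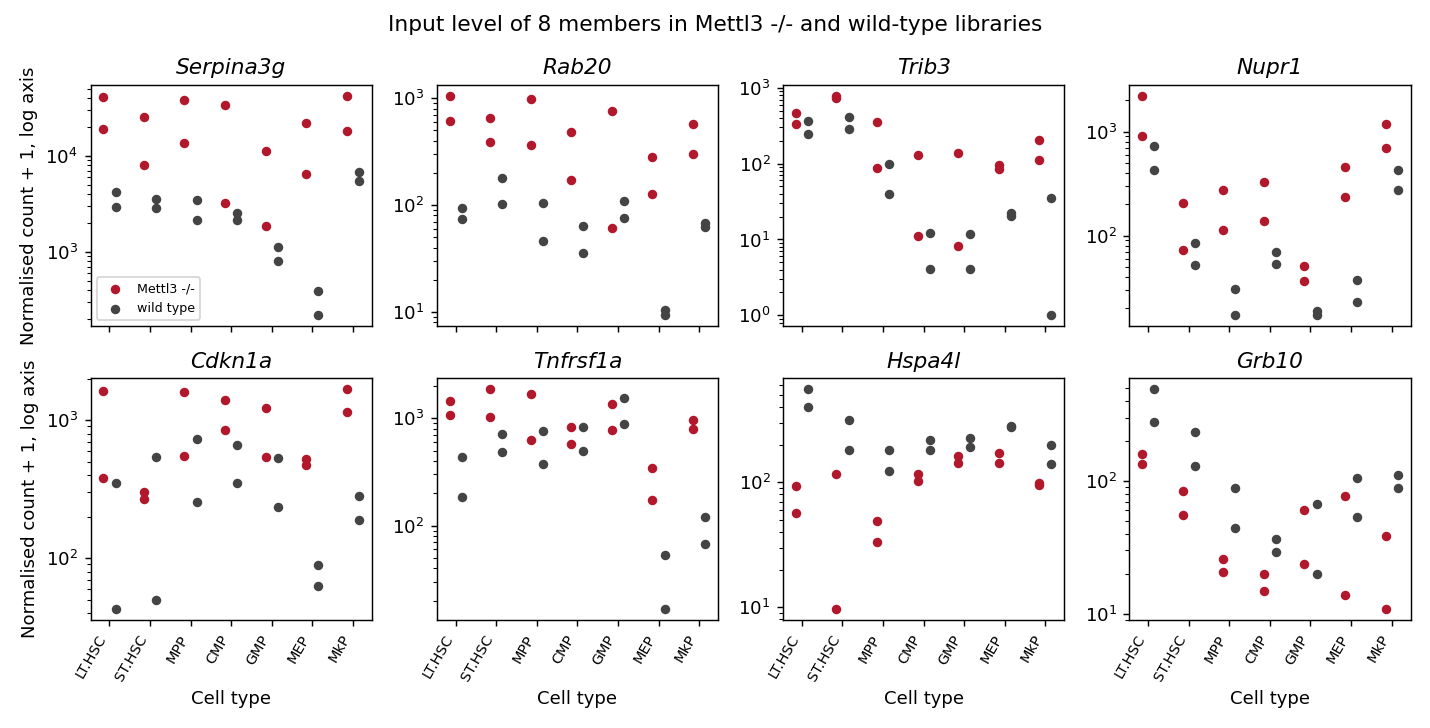
Input level (normalised count plus 1, log axis) of 8 members in 7 cell types, 1 point a library, with Mettl3 -/- left of wild type. The means of Serpina3g, Rab20, Trib3 and Nupr1 were higher in Mettl3 -/- in 7 of 7 types, and those of Hspa4l and Grb10 were lower in 7 of 7.

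In all, 26 members (13%) were higher in Mettl3 -/- inputs, where 7.24% of all and 7.7% of eligible genes were, and 5 (2.5%) were lower, where 2.89% of all and 3.67% of eligible genes were. The median log2 difference of the members was -0.13, against -0.04 for eligible genes and -0.06 for all genes. Without these 3 types, 7 members were higher and 2 lower. The count of lower members was 9 without Mettl3 -/- LT.HSC replicate 1, 8 without wild-type MkP replicate 1, 28 without Mettl3 -/- ST.HSC replicate 2 and 8 without wild-type LT.HSC replicate 2. Within MEP alone, 7 members (3.5%) were higher, where 2.14% of all genes were, led by Serpina3g (5.37), Clcf1 (4.50), Rab20 (4.26) and Nupr1 (3.50). Markers of maturing granulocytes moved along, with 4 of 8 neutrophil markers higher and none lower, and sums of 124 to 33514 (median 1484) in Mettl3 -/- inputs, against 56.9 to 8609 (median 388) in wild-type inputs. Of 6 granulocyte-monocyte progenitor markers, 2 were higher, and of 8 monocyte markers, 2. Their part in the result was not tested.

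The precipitates showed 5 members (2.5%) higher in Mettl3 -/- by edgeR's quasi-likelihood test, where 0.641% of all and 0.599% of eligible genes were, and none lower, where 0.155% of all genes were. Rab20 had 0 to 52.2 CPM (median 15) in Mettl3 -/- precipitates, against 0 to 8.95 CPM (median 0.71) in wild-type precipitates (3.73 ± 0.87, adjusted p = 0.0324). Serpina3g (2.37, adjusted p = 0.00178), Nfkb2 (2.27, adjusted p = 0.0228), Nupr1 (1.78, adjusted p = 0.0462) and H1f0 (1.48, adjusted p = 0.0418) were the others. All 5 were also higher in the Mettl3 -/- inputs. None of the 5 calls held under every alternative. The Rab20 call was lost without Mettl3 -/- CMP precipitate 2 (2.23, adjusted p = 0.999996) and the Nfkb2 call without Mettl3 -/- GMP precipitate 1 (1.77, adjusted p = 0.0684). The Nupr1 call was lost in 5 of 28 single omissions and the H1f0 call in 3. At an unadjusted p under 0.05, 24 members were higher and 8 lower, against 1385 and 548 of all 17463 genes. DESeq2 called 18 members higher and 2 lower. The DESeq2 counts and the unadjusted counts that follow are given without a share of all genes. Without LT.HSC, ST.HSC and MEP no member was called by edgeR, with 17 higher and 3 lower at an unadjusted p under 0.05. The higher count was 3 without Mettl3 -/- ST.HSC replicate 1. It was 8 to 10 without replicate 1 of Mettl3 -/- CMP, GMP, LT.HSC, MkP or MPP, replicate 2 of Mettl3 -/- ST.HSC, replicate 1 of wild-type GMP, LT.HSC or ST.HSC, or replicate 2 of wild-type MkP. The lower count went from 0 to as many as 3 when single libraries were left out, reaching 3 without Mettl3 -/- ST.HSC replicate 2 and without wild-type ST.HSC replicate 2.

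The enrichment of precipitate over input was then compared between the labels. No member and no gene of 14575 passed in either direction by limma, 0% of all genes. At an unadjusted p under 0.05, 5 members were higher and none lower, against 355 and 409 of all genes. The median difference was -0.03 for members, against -0.08 for eligible genes. A loss shared by all transcripts is removed by the scaling within each table and could not be seen here.

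In Igf2bp2 -/- LT.HSC, the reader gene itself had 13.03 and 12.5 CPM in Igf2bp2 -/-, against 7.11 and 53.5 CPM in wild type (-0.87, adjusted p = 0.972), so its level did not separate the labels either. Of 194 members tested with edgeR, none passed in either direction, nor did any of 12221 genes (0% of all genes). At an unadjusted p under 0.05, 3 members were higher (Nupr1, Rbmx2 and Nsrp1) and 2 lower (Irgm1 and Hook2). At the same cut, 302 of all 12221 genes were higher and 474 lower. DESeq2 called no member, against 85 genes higher and 66 lower of 13512. Nupr1 had 18.4 and 37.0 CPM in Igf2bp2 -/-, against 9.61 and 2.44 CPM in wild type (2.50, adjusted p = 0.769).

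The chase tables hold the authors' averages at each time, with no replicate values, so the following are descriptions. In LT.HSC, 58 members were listed at 0.5 h with a median T-to-C ratio of 0.0251%, against 0.0361% for eligible genes and 0.123% for the 200 lowest. Members were also below eligible genes at 1 h, with 0.112% against 0.146%. From 3 h on they were at or above them, with 0.0231% against 0.0225% at 3 h, 0.0211% against 0.0183% at 6 h, 0.0187% against 0.0168% at 9 h, 0.0212% against 0.0186% at 12 h and 0.110% against 0.0535% at 24 h. Against eligible genes, the order seen in the pulse was thus turned round at the first 2 times only. The label of this design was taken up over 24 h. The 200 lowest lay above members at 1 h (0.277%), 3 h (0.0372%), 6 h (0.0230%), 9 h (0.0255%) and 12 h (0.0299%) as well. They lay below members at 24 h (0.0889%). Each median covers the genes listed then, 40 to 135 of the 200 members. In MkP, 135 members were listed at 0.5 h with a median of 0.0513%, against 0.0720% for eligible genes and 0.0947% for the 200 lowest. Members stayed below eligible genes in MkP at 1 h (0.0273% against 0.0557%), 3 h (0.0274% against 0.0421%), 9 h (0.0125% against 0.0144%) and 12 h (0.0191% against 0.0232%). They lay above them at 6 h (0.0165% against 0.0155%) and 24 h (0.0157% against 0.0151%).

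The share of the 0.5 h ratio left at 6 h was taken for genes listed at both times. In MkP, 104 members had a median of 34.2% left and 82 of them (78.8%) were lower at 6 h, against 24.98% left for eligible genes (84.0% of them lower) and 33.4% for the 200 lowest. In LT.HSC, 47 members had a median of 104% left and 22 were lower, against 61.1% left for eligible genes (63.5% of them lower) and 47.5% for the 200 lowest. Klf6 had 0.819% at 0.5 h, 0.0168% at 1 h, 0.00771% at 3 h and 0.00596% at 6 h in LT.HSC, and 0.0649%, 0.0630%, 0.0359% and 0.0136% at the same times in MkP. Nol12, a factor of ribosomal RNA processing, had 0.141% at 0.5 h and 0.00335% at 6 h in MkP, the lowest share left there. Wdr26 went the other way in LT.HSC, with 0.00654% at 0.5 h and 0.437% at 6 h. Jun, Btg2, Trib3 and Nupr1 were not listed at 0.5 h in LT.HSC, and Taco1 was listed at no time there. Only 19 members in LT.HSC and 17 in MkP had a value at all 7 times.

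**Figure D5:**
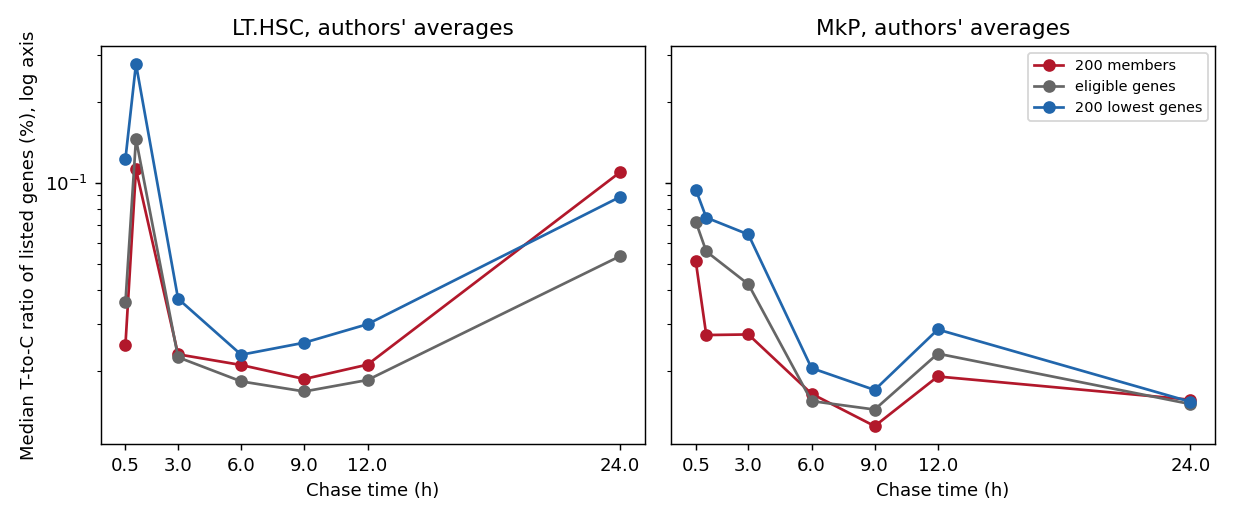
Median T-to-C ratio (percent, log axis) at 7 chase times (h) in LT.HSC and MkP for members, eligible genes and the 200 lowest, over the genes listed at each time. At 0.5 h members lie below eligible genes in both types, at 0.0251% and 0.0361% in LT.HSC and 0.0513% and 0.0720% in MkP.

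RefSeq entries were matched by symbol for 198 of the 200 members, all protein coding (Fam45a and BC005561 are named only). Members spanned a median of 20089 bases of genome, against 24707 for eligible genes and 8654 for the 200 lowest. Some members share their locus. Mnat1 and Trmt5 overlap by 5474 bases on chromosome 12, Trmt5 and Slc38a6 by 237, Pibf1 and Dis3 by 357 on chromosome 14, and Itfg1 and Phkb by 97 on chromosome 8. These 4 pairs hold 7 members, and 39 of the 198 overlap another protein-coding gene. No source states whether the counting used strand, and reads of overlapping genes cannot be told apart. The same holds for the families behind Vmn2r53, Olfr1033, Gvin1 and Hbb-bt.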

How the data were processed

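The pulse and chase ratios are fractions deposited by the authors, and the chase columns are the authors' averages. The input tables hold the authors' normalised counts (signal), in which 100% of values fell on whole reads within a tolerance of 0.1 reads. The 16-type precipitate and Igf2bp2 tables hold counts deposited by the authors. The Mettl3 precipitate table holds estimated counts deposited by the authors, rounded here. Per the submitters' processing notes, GRCm38, Trimmomatic, fastp and kallisto were used, in versions not given in the sources used here.

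Inputs were compared with limma 3.58.1 (R 4.3.3) on log2(value + 1), keeping genes with at least 10 in at least 2 libraries, so fold changes of low genes are understated. Enrichment was the interaction of precipitate and input in limma on log2(CPM + 1) with TMM factors. Mettl3 precipitates and Igf2bp2 counts went through edgeR 4.0.16 (quasi-likelihood), with DESeq2 1.42.0 as an alternative. P-values were adjusted over all genes (Benjamini-Hochberg, 0.05). Scripts were tested on simulated data. Promoter windows came from RefSeq.

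Members, gene lists and tests were chosen with earlier results of these data known. Genes named in the text are the highest by score, those at the boundary, up to 8 members at each end of each comparison, and list members; Wdr53, Igf2bp2 genes at an unadjusted p under 0.05 and those quoted for contrast were chosen after their values were seen. Replicate numbers were not taken as pairs, since the labels give them no shared source and the same-numbered libraries did not deviate together in every pair of groups. Alternatives covered scaling, filters, pseudocounts, priors, tools, the replicate block, single libraries left out and other choices of the members.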

Additional observations from a re-analysis of the deposited data

How the results depend on the processing

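No call at the ends of a comparison changed sign under an alternative. The Sesn2 difference in LT.HSC inputs, outside those ends, did so without LT.HSC replicate 2. Some small medians and balances changed sign too. Members' median log2 difference was -0.07 by quantile normalisation and -0.03 by edgeR in LT.HSC inputs (0.05 as reported, with 39 higher and 46 lower by quantile normalisation), -0.01 by edgeR in mature inputs (0.14 as reported) and 0.06 with median of ratios factors in Mettl3 enrichment (-0.03 as reported). The list itself was the most dependent: of the 200 genes, 124 were shared without median scaling, 109 with a mean of logs, 82 by mean rank, 82 without GMP 2, LT.HSC 2 and MEP 2 (a choice made after seeing the data), 118 with an input minimum of 200 and 135 to 198 with 1 pulse library left out. The counts of members called then moved as follows. In Mettl3 precipitates, members higher were 18 by DESeq2, 10 with no filter and 0 without LT.HSC, ST.HSC and MEP, against 5; members lower were 2, 2 and 0, and 1 for the mean rank list. In Mettl3 inputs, leaving out these 3 types gave 7 higher and 2 lower, and the replicate block gave 26 higher and 10 lower, where same-numbered libraries had correlations over 0.1 in 56 of 91 pairs of groups (median 0.16), and in 16 of 120 in the 16-type inputs (median 0.003); the block moved no other count by over 1.5 times. The mean rank list had 30 members lower in mature inputs and 35 lower in mature enrichment, the list without 3 pulse libraries had 15 lower in LT.HSC enrichment, and a prior of 5 gave 9 higher in mature enrichment. The cause was not tested. With 1 library left out, where a lone library is assumed to vary like the other groups, counts of members higher and lower ranged from 23 to 47 and 19 to 41 for LT.HSC inputs, 22 to 34 and 41 to 68 for MkP inputs, 85 to 90 and 62 to 66 for mature inputs, 3 to 22 and 4 to 46 for LT.HSC enrichment, 3 to 37 and 4 to 16 for MkP enrichment, 4 to 9 and 16 to 28 for mature enrichment, 21 to 32 and 4 to 28 for Mettl3 inputs, and 3 to 10 and 0 to 3 for Mettl3 precipitates. Mettl3 enrichment and Igf2bp2 stayed at 0 throughout. Of the calls at the ends of each comparison, 16 of 16 (LT.HSC inputs), 15 of 16 (MkP), 15 of 16 (mature), 3 of 16, 6 of 14 and 11 of 13 (enrichment in LT.HSC, MkP and mature), 7 of 13 (Mettl3 inputs) and 0 of 5 (Mettl3 precipitates) passed under every alternative run. Calls named besides these are not counted here. Single omissions ended those of Pim1, Socs5 and Sesn2 in LT.HSC inputs and of Nfkb2 in Mettl3 inputs. edgeR on the recovered reads of the mature comparison called 4913 genes higher and 5270 lower, against 6771 and 5080. The shallowest library, a Mettl3 precipitate, had 0.819 M reads, and median depth was lowest in the Igf2bp2 set (5.71 M).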
